A study of Mus musculus with 69 samples.

Results

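Lungs of female C57BL/6 mice were profiled 24 h after a single intratracheal instillation of 162 µg of NRCWE-025, a titanium dioxide nanoparticle (nano-TiO2), and were compared with lungs of mice given the vehicle alone. The 5 treated arrays and the 5 vehicle arrays described here were 10 of the 69 arrays of the series, chosen by material, dose and day as their titles give them. The other arrays covered 18 and 54 µg of the same material, the same doses of a second nano-TiO2 (NRCWE-030), and day 28. Every array of the series carried the lung RNA of 1 mouse against a common reference RNA pooled from mouse cell lines, so each value is a log2 ratio of lung to reference, and a difference between groups is a log2 fold change.

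The mice were 5 to 7 weeks old on arrival and were acclimatised for 1 to 3 weeks. The treated group received the particles dispersed in 2% serum in water, and the vehicle group received that liquid without particles. The same day 1 vehicle arrays are the controls of both materials and of all 3 doses. A small frozen piece of each lung was homogenised, so the cell types in a piece could differ between mice, and in such bulk RNA fewer cells of a type and less RNA per cell cannot be told apart.

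In the lung, inhaled or instilled particles are met first by alveolar macrophages and by the epithelium. These cells release chemokines, which draw monocytes and granulocytes in, and cytokines of the interleukin-1 and interleukin-6 families. Those cytokines induce acute phase proteins, a group of secreted plasma and tissue proteins that includes the serum amyloid A family. Genes of drug and xenobiotic oxidation, such as cytochromes P450, are abundant in club cells and other lung epithelium.

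The group differed from vehicle in 39 of 18664 genes tested at an adjusted p under 0.05 (limma moderated test, Benjamini-Hochberg), which is 0.209% of them. Of these, 14 were higher (0.075%) and 25 were lower (0.134%). Most genes with the largest mean changes were not among them, and the treated or the vehicle lungs spread widely in those genes. Serum amyloid A3 (Saa3) had the largest mean difference of all, 5.16 ± 1.1 (log2 difference ± SE, n = 5 and 5), and missed the threshold with an adjusted p of 0.0546. SEs against vehicle here are limma's, from 1 variance per gene over vehicle and all 3 doses (20 arrays). For Saa3 the treated SD was 3.00, against 0.48 in vehicle, 0.73 at 18 µg and 2.28 at 54 µg. The shared variance lowered the SE of such genes. With the 10 arrays of the 2 groups alone in the fit, 1 gene was called, and it was lower.

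The serum amyloid A promoters are shown because the 3 inducible members of that family led the rises and moved together from array to array. Each run holds the 250 bases before and the 50 bases from the RefSeq transcription start, on the strand of the gene (GRCm38.p6). Capitals mark matches to TTNNGCAA on either strand, a core of the sites bound by C/EBP factors, which take part in acute phase transcription.
Saa3, chr7:46715627-46715926, minus strand: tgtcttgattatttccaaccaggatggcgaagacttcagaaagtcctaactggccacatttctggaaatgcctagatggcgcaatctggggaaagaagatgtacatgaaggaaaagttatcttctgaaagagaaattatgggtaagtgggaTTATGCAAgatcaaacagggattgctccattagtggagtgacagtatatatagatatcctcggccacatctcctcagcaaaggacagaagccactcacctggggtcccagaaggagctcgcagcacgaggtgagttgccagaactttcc
Saa1, chr7:46742931-46743230, minus strand: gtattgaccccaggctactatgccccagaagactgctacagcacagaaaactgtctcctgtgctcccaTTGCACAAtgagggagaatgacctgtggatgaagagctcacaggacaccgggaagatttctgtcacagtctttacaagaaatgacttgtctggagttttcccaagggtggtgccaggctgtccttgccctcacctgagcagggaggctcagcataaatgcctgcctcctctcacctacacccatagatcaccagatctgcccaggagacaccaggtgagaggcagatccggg
Saa2, chr7:46751583-46751882, plus strand: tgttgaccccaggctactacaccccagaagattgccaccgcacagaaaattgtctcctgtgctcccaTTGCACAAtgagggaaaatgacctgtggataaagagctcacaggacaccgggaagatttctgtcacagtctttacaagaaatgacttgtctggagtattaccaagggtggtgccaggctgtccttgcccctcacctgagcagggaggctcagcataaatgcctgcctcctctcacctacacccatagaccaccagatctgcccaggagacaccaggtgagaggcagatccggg

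Each of these promoters held 1 match to TTNNGCAA, a motif chosen after the sequences were read and present in 10.8% of the 32851 RefSeq promoters of the same length. None of them held the NF-kB consensus, which 8.46% of those promoters did, searched on both strands and with no overlap between the motifs here. The Saa1 and Saa2 promoters were 95.3% identical over 301 aligned positions, whereas Saa3 was 51.3% identical to Saa1 and 51.1% identical to Saa2. A match is a run of letters and not a measured site. The transcripts of Saa1 and Saa2 are themselves close copies, so a probe for one may also bind the other, and their levels are not fully separate measurements.

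**Figure D1:**
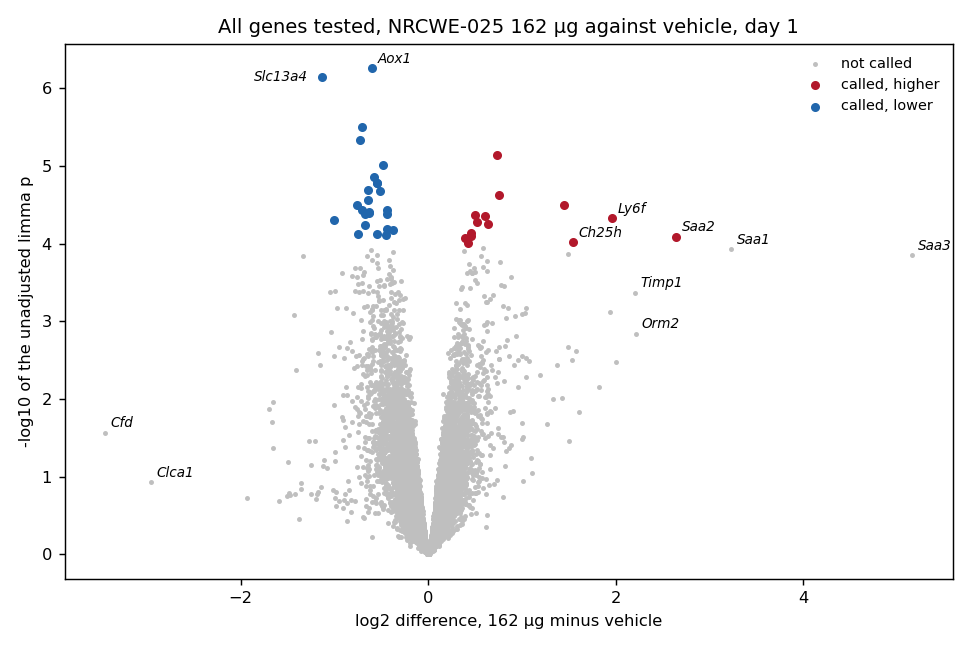
Each point is 1 of the 18664 genes tested, with the log2 difference between 162 µg and vehicle on day 1 on the x axis and -log10 of the unadjusted limma p on the y axis. The 14 genes called higher and the 25 called lower are coloured, and Saa3 lies farthest to the right but below the called genes.

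Acute phase genes carried the largest mean rises and the largest excesses of treated over vehicle SD. Saa3 stood at -2.18, 1.87, 2.93, 5.54 and 4.56 in treated replicates 1 to 5 and at -2.68, -1.91, -2.55, -3.25 and -2.69 in vehicle replicates 1 to 5. The other 4 treated lungs were above every vehicle lung, while replicate 1 lay within the vehicle range.

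Saa1 showed the same order, with 0.13, 2.58, 2.90, 5.30 and 4.43 in treated replicates 1 to 5 against -0.51 to 0.13 in the vehicle arrays (difference 3.23 ± 0.68, adjusted p = 0.0535). Its 2 probes differed by 2.94 and 3.52, and the weaker probe was well above background on 2 of the 5 vehicle arrays. Saa2 was called: it stood at 0.43, 2.81, 2.87, 4.21 and 3.98 in treated and at 0.27, 0.38, 0.33, 0.02 and 0.06 in vehicle replicates 1 to 5, a difference of 2.65 ± 0.54 or 6.27-fold (adjusted p = 0.0425). Treated replicate 1 exceeded the highest vehicle array in Saa2 by a small margin, and the other treated arrays exceeded it by over 2 log2 units.

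Orosomucoid 2 (Orm2), a plasma carrier protein, had a mean difference of 2.22 ± 0.60 and was well above background on 4 treated arrays but on 1 vehicle array. Lipocalin 2 (Lcn2), which binds bacterial siderophores, stood at 0.67, 3.72, 4.53, 4.47 and 4.58 in treated replicates 1 to 5 against 1.25 to 2.17 in vehicle lungs. The treated replicate 1 value was below every vehicle array and the other 4 were above every one of them. Haemopexin (Hpx), a haem scavenger, differed by 1.49 ± 0.32 and ceruloplasmin (Cp), a copper carrier, by 1.0 ± 0.40, neither of them called.

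Of the 21 acute phase genes tested, 1 was called higher (Saa2) and none lower, against 0.075% of all genes called higher. At an unadjusted p under 0.05, 9 were higher and 0 lower, where 5.15% of all genes were higher and 7.12% lower. The list had a median difference of 0.57 against a median of -0.00014 over all genes. Treated replicate 4 was the highest treated array in 14 of the 21 genes, and treated replicate 1 was the lowest in 13. The share of all genes with these orders was not computed. Replicate 4 was also above every vehicle array in the most genes well above background, 3159 against 1666 to 2937 on the other treated arrays. The list medians relative to the vehicle mean were -0.01, 0.40, 0.61, 1.34 and 0.38 in treated replicates 1 to 5.

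Some of the variable genes are textbook liver products. Albumin (Alb) stood at 2.02, 0.24, 2.76, 3.70 and 0.72 in treated replicates 1 to 5 against 0.16 to 0.66 in vehicle lungs, and the alpha-1-antitrypsin gene Serpina1d at 2.16, 0.33, 2.34, 2.94 and 0.63 against -0.21 to 0.29. Both were highest in treated replicates 1, 3 and 4, an order unlike that of the serum amyloid A genes. The fetuin gene Ahsg had the same order, with 1.48, 0.38, 2.11, 2.91 and 0.69, and fibrinogen beta (Fgb) deviated from the vehicle mean by 1.14, -0.10, 1.32, 2.53 and 0.18. Of the 5 liver markers tested, 2 (Alb and Ahsg) were well above background, and Apob and Ttr were at background on all 10 arrays. The summed level of the liver list, on a log2 scale, ranged from 2.44 to 4.59 in treated and from 2.43 to 2.68 in vehicle lungs. The part of liver-type RNA in the acute phase result was not tested.

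**Figure D2:**
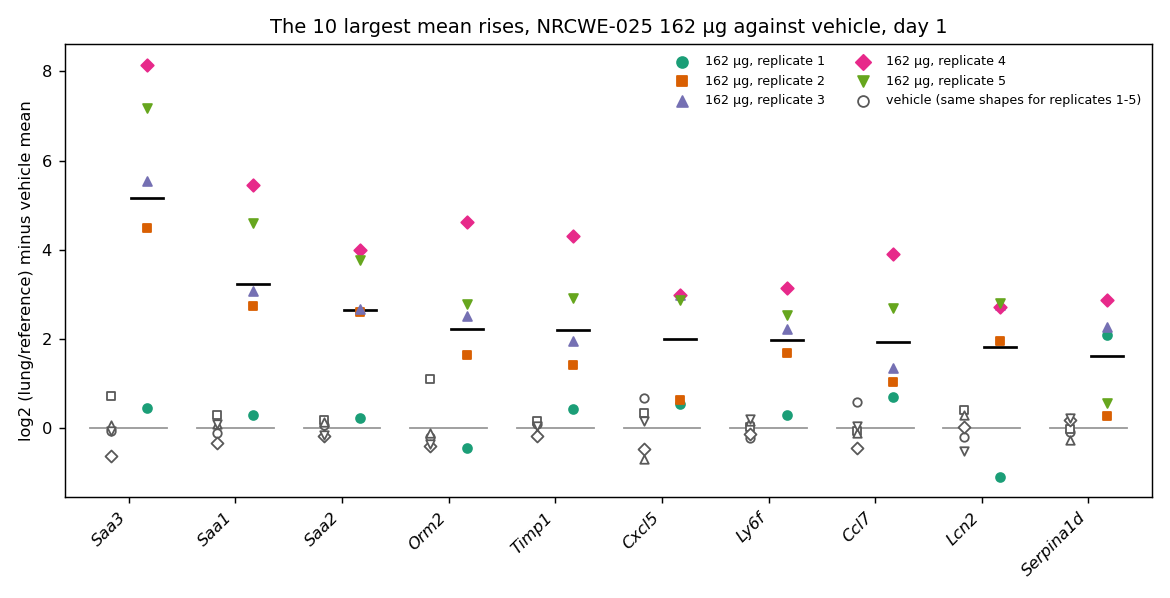
The 10 genes with the largest mean rise among those well above background, each treated array (coloured) and each vehicle array (open) as log2 lung over reference minus the vehicle mean, with a bar at the treated mean. Treated replicate 4 is highest and replicate 1 lowest for most of them, and Saa3 spans 0.44 to 8.15.

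Chemokines that attract monocytes had higher means in treated lungs, and 1 of them passed the threshold. The monocyte chemoattractant Ccl12 was called, at 0.59, 1.46, 1.30, 2.59 and 1.46 in treated replicates 1 to 5 and 0.28, -0.02, 0.08, 0.05 and -0.23 in vehicle replicates 1 to 5 (difference 1.45 ± 0.27, 2.72-fold, adjusted p = 0.0354). All 5 treated values lay above the vehicle values. Ccl7, a related monocyte attractant, stood at -2.31, -1.98, -1.66, 0.89 and -0.33 against -3.46 to -2.44, also with no overlap, but its difference of 1.93 ± 0.49 was not called (adjusted p = 0.0939).

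The neutrophil attractants did not share that order. Cxcl5 stood at -2.65, -2.55, -0.20, -0.19 and -0.30 in treated replicates 1 to 5, so replicates 3 to 5 were above every vehicle array (range -3.87 to -2.50) and replicates 1 and 2 were within their range. Cxcl1 deviated from the vehicle mean by 3.51, 0.85, 0.79, 1.54 and 1.20, so its highest treated value came from replicate 1, the array with the lowest Saa3. Its difference was 1.58 ± 0.45 with no overlap between groups and an adjusted p of 0.136, and it was well above background on 4 treated and 2 vehicle arrays.

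Of 18 chemokine genes tested, 1 was called higher, against 0.075% of all genes. At an unadjusted p under 0.05, 11 were higher, against 5.15% of all genes, and none was lower at either threshold. The list median was 0.89, with 0.02, 0.46, 0.79, 1.48 and 1.09 in treated replicates 1 to 5. Treated replicate 4 was the highest treated array in 14 of the 18 genes and replicate 1 the lowest in 14, again without a share over all genes.

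The neutrophil marker list had members of either sign. Of its 14 genes tested, 7 had a higher treated mean, none was called, and 0 were higher and 1 was lower at an unadjusted p under 0.05. Over all genes 49.9% had a higher treated mean, and 5.15% were higher and 7.12% lower at that threshold. The median difference of the list was -0.01, and it was positive, up to 0.19, in 5 of 6 other background and scaling choices. The calprotectin gene S100a9 stood at 7.05, 7.47, 6.94, 7.29 and 7.21 in treated replicates 1 to 5 against 7.40, 7.25, 7.10, 7.44 and 7.00 in vehicle replicates 1 to 5, and S100a8 differed by -0.09 ± 0.22. The receptor gene Csf3r differed by 0.37 ± 0.28, the gelatinase gene Mmp9 by 0.35 ± 0.23 and the chemokine receptor gene Cxcr2 by 0.28 ± 0.16. The list medians were -0.03, 0.08, 0.00, 0.45 and -0.11 in treated and 0.06, -0.02, -0.12, 0.07 and -0.00 in vehicle replicates 1 to 5, so treated replicate 4 lay above every vehicle array. The summed level of the list ranged from 7.36 to 7.83 in treated and from 7.39 to 8.02 in vehicle lungs. The formyl peptide receptor gene Fpr1 was the 1 member lower at an unadjusted p under 0.05, by -0.81 ± 0.29, with its lowest values in treated replicates 4 and 5 (1.45 and 1.65).

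Of 14 cytokines and feedback genes of the STAT3 pathway tested, 6 were higher at an unadjusted p under 0.05, against 5.15% of all genes. None was lower, against 7.12% of all genes, and none was called. The median difference was 0.28. The interleukin-1 receptor antagonist Il1rn differed by 0.59 ± 0.13 and Socs3, the feedback inhibitor of interleukin-6 signalling, by 0.45 ± 0.13, both without overlap between groups. Interleukin-6 (Il6) was not well above background on any vehicle array and was on 4 treated arrays. Its rise of 1.91-fold in treated lungs is therefore an estimate and not a strict lower bound. For each vehicle array it takes the higher of the Il6 signal and the lowest signal that stood clear of background. The treated mean was set against the mean of these values, and the adjusted p of the limma fit was 0.151.

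Genes of extracellular matrix turnover included 1 called member and 1 of the most variable genes of the comparison. The protease gene Adamts9 was called, at 1.1, 0.87, 0.75, 0.75 and 1.1 in treated and 0.08, 0.56, 0.58, 0.33 and 0.43 in vehicle replicates 1 to 5 (difference 0.52 ± 0.10, adjusted p = 0.0377). Its 2 probes differed by 0.85 and 0.18, and the second was not well above background on any of the 10 arrays. Timp1, the inhibitor of matrix metalloproteinases, stood at -1.81, -0.84, -0.30, 2.07 and 0.68 against -2.42 to -2.08, with no overlap and a difference of 2.20 ± 0.52 (adjusted p = 0.0736). Its treated SD was 1.48 and its vehicle SD 0.14. Stromelysin 1 (Mmp3) differed by 1.04 ± 0.26, and it deviated from the vehicle mean in treated replicate 1 too, by 0.90. Of 20 matrix genes tested, 1 was called higher, against 0.075% of all genes, and 6 were higher and 0 lower at an unadjusted p under 0.05, against 5.15% and 7.12% of all genes, with a median of 0.17.

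The other called rises differed in how evenly the 5 mice shared them. Cholesterol 25-hydroxylase (Ch25h), which makes the oxysterol 25-hydroxycholesterol, stood at 2.84, 3.27, 3.82, 4.06 and 3.75 in treated and 2.21, 2.13, 2.27, 1.82 and 1.60 in vehicle replicates 1 to 5 (difference 1.54 ± 0.32, adjusted p = 0.0471). Ly6f, a lymphocyte antigen 6 family gene, followed the serum amyloid A order instead, with 0.42, 1.81, 2.35, 3.28 and 2.67 against -0.09 to 0.34 (difference 1.96 ± 0.38). Pleckstrin (Plek), a protein kinase C substrate of leukocytes and platelets, was highest in treated replicate 1, at 1.0, 0.66, 0.85, 0.86 and 0.84 against -0.04 to 0.35 (difference 0.74 ± 0.12, adjusted p = 0.027).

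Further called rises were the urokinase receptor Plaur (0.64 ± 0.12), Nrros, a transmembrane protein of myeloid cells (0.60 ± 0.12), and the leukocyte adaptor Lcp2 (0.50 ± 0.10). The RNA-binding protein gene Hnrnpdl (0.75 ± 0.14) and the splicing factor gene Sf3b6 (0.40 ± 0.08) rose as well. The same held for the ribosome biogenesis gene Urb2 (0.45 ± 0.09), the thiopurine methyltransferase Tpmt (0.45 ± 0.09) and Lrrc40 (0.42 ± 0.09). In each of the 14 genes every treated array lay above every vehicle array, a pattern that 163 of all genes (0.873%) showed. For Hnrnpdl and Lrrc40, which have 3 probes each, the probes ranged from 0.29 to 0.75 and from 0.07 to 0.42, and the weakest Lrrc40 probe was not well above background on any of the 10 arrays.

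**Figure D3:**
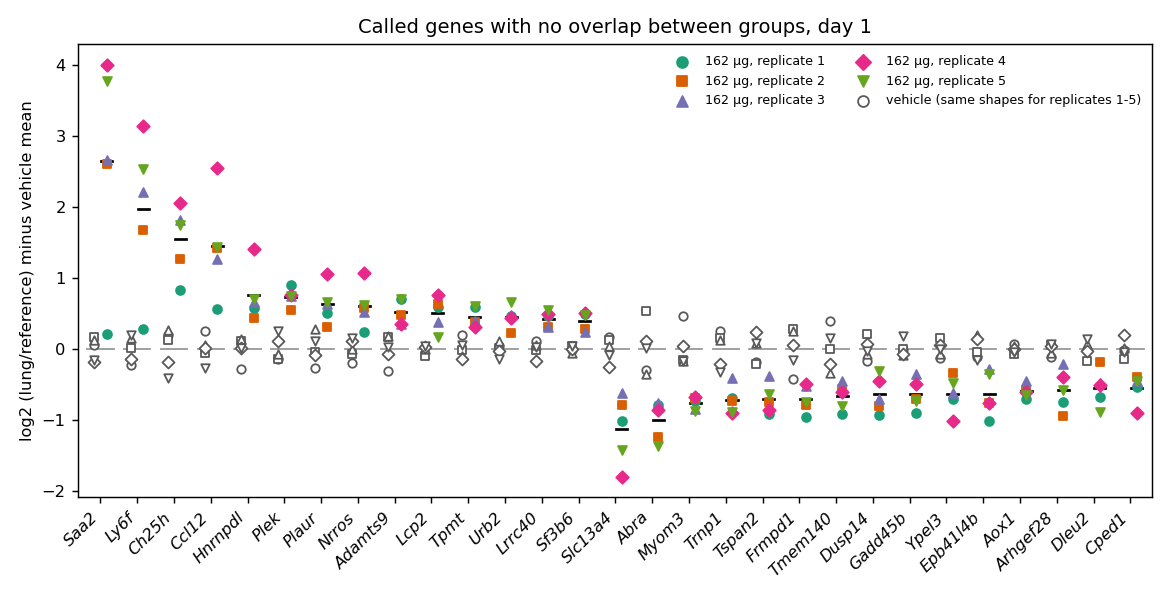
The 29 named genes that were called and did not overlap between groups, each array as log2 lung over reference minus the vehicle mean, treated arrays coloured and vehicle arrays open, with a bar at the treated mean. Saa2, Ly6f and Ccl12 fan out among treated arrays, whereas Aox1 sits between -0.70 and -0.45 on the treated arrays.

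The called falls were mostly of under 1 log2 unit. Slc13a4, a sodium and sulfate cotransporter, stood at 1.76, 1.99, 2.17, 0.98 and 1.37 in treated and 2.95, 2.91, 2.83, 2.53 and 2.70 in vehicle replicates 1 to 5, a fall of 2.19-fold (difference -1.13 ± 0.16, adjusted p = 0.00675). Aldehyde oxidase 1 (Aox1) stood at 0.95, 1.08, 1.20, 1.05 and 1.0 against 1.73, 1.58, 1.69, 1.66 and 1.61 (difference -0.60 ± 0.08, adjusted p = 0.00675). In both genes each treated array was below each vehicle array, and they were the pair still called when any 1 of the 10 arrays was left out. Over 18 other settings of processing and fit, Slc13a4 was called in 10 and Aox1 in 14. Their differences ranged from -1.48 to -0.58 and from -0.73 to -0.46, with limma's adjusted p up to 0.611 and 0.305.

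Abra and Myom3 were called lower. Abra, an actin-binding protein of striated muscle, stood at 1.26, 0.81, 1.29, 1.19 and 0.68 against 1.69 to 2.58 (difference -1.0 ± 0.19). The myomesin gene Myom3, a component of the sarcomere M-band, stood at 1.52, 1.56, 1.40, 1.58 and 1.38 against 2.07 to 2.72 (difference -0.76 ± 0.14), and its treated SD was 0.09. Treated lungs did not overlap vehicle lungs in either gene. Abra was highest in vehicle replicate 2 (2.58) and Myom3 in vehicle replicate 1 (2.72). The median of the heart muscle markers relative to the vehicle mean was 0.30 and 3.14 on those vehicle replicates 1 and 2. It was -1.41 to -0.92 on the treated arrays and -0.94, -1.12 and -1.03 on vehicle replicates 3 to 5. On vehicle replicates 3 to 5, Abra stood at 1.69, 2.16 and 2.06 and Myom3 at 2.07, 2.29 and 2.08. The part of muscle RNA in these falls was not tested.

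Further called falls were smaller than that of Slc13a4. The stress-inducible gene Gadd45b differed by -0.64 ± 0.12, with treated values of -0.17 to 0.38 against 0.65 to 0.92. The phosphatase genes Dusp14 (-0.64 ± 0.12) and Ptpn13 (-0.55 ± 0.10), the guanine nucleotide exchange factor Arhgef28 (-0.57 ± 0.10), the histone deacetylase Hdac5 (-0.44 ± 0.08) and the receptor adaptor Grb7 (-0.52 ± 0.09) were lower too. Grb7 was 1 of the 3 called genes whose groups overlapped, with treated replicate 2 at 2.36 above vehicle replicate 3 at 2.35. The tetraspanin Tspan2 (-0.71 ± 0.11), Trnp1 (-0.73 ± 0.12), Frmpd1 (-0.70 ± 0.13), Tmem140 (-0.67 ± 0.13), Ypel3 (-0.63 ± 0.12), Epb41l4b (-0.63 ± 0.12), the noncoding RNA gene Dleu2 (-0.55 ± 0.10) and Cped1 (-0.55 ± 0.11) completed the 15 largest called falls without overlap, next to Grb7, Ptpn13 and Hdac5, which were named after their values were seen.

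In 22 of the 25 genes called lower, every treated array was below every vehicle array, which held for 227 of all genes (1.22%). Treated replicate 1, whose acute phase and chemokine medians were near 0, lay below every vehicle array in 25 of the 25 genes and had the lowest median of the 5 treated arrays over them, -0.70. The other treated arrays had medians of -0.56, -0.45, -0.63 and -0.64. That array was also above every vehicle array in 14 of the 14 genes called higher. These counts describe genes chosen with these same arrays, and no test was made on them.

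Most genes of xenobiotic oxidation had lower means in treated lungs. Of 20 tested, 1 was called lower (Aox1) and none higher, against 0.134% and 0.075% of all genes. At an unadjusted p under 0.05, 13 were lower and 0 higher, against 7.12% and 5.15% of all genes, and 1 of the 20 had a higher treated mean, against 49.9% of all genes. The median difference was -0.53, and the medians of treated replicates 1 to 5 were -0.58, -0.29, -0.36, -0.63 and -0.65. Treated replicate 1 lay here with replicates 4 and 5. The vehicle medians were 0.01, -0.04, 0.13, 0.10 and -0.36, so vehicle replicate 5 was as low as treated replicate 3.

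The glutathione transferase Gsta3 differed by -0.73 ± 0.16 (adjusted p = 0.0628). Gsta3 stood at 3.40, 3.67, 3.83, 2.73 and 3.12 in treated replicates 1 to 5 and at 4.24, 3.94, 4.08, 4.27 and 3.88 in vehicle replicates 1 to 5, without overlap. Cytochrome P450 2b10 (Cyp2b10) differed by -0.95 ± 0.27 and was lowest in treated replicates 1 and 2, at deviations of -1.83 and -1.44. The aryl hydrocarbon receptor target Cyp1a1 was lower on every treated array (difference -0.56 ± 0.15), and it was well above background on 1 treated array against 5 vehicle arrays. The club cell gene Cyp2f2 belongs to this list and to the club and secretory list, and differed by -0.39 ± 0.20 (unadjusted p over 0.05).

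DNA replication genes were higher on average in 19 of 19 tested, against 49.9% of all genes. At an unadjusted p under 0.05, 13 of them were higher (5.15% of all genes), with none called and a median of 0.41. The replicative helicase subunit Mcm2 stood at -2.16, -2.01, -2.17, -1.39 and -1.33 in treated and -2.25, -2.32, -2.64, -2.80 and -2.23 in vehicle replicates 1 to 5 (difference 0.64 ± 0.18, adjusted p = 0.136). Pcna, the sliding clamp of the replication fork, differed by 0.41 ± 0.13 and also did not overlap. Uhrf1, which maintains DNA methylation at replication, had the largest difference of the list, 0.94 ± 0.26. The array medians were 0.21, 0.38, 0.11, 0.61 and 0.71 in treated and 0.21, 0.19, -0.19, -0.29 and 0.15 in vehicle replicates 1 to 5. Vehicle replicates 1, 2 and 5 thus lay above treated replicate 3. Mitosis genes had a median of 0.22, with 4 of 22 higher at an unadjusted p under 0.05, and that median was negative, down to -0.05, in 1 of 6 other background and scaling choices.

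Interferon-stimulated genes stood highest in 1 treated mouse. Their medians relative to the vehicle mean were 0.06, 0.28, -0.03, 1.47 and 0.36 in treated replicates 1 to 5. Isg15, a ubiquitin-like interferon product, deviated by -0.07, 0.72, 0.11, 2.99 and 1.27 and had a difference of 1.0 ± 0.44. The antiviral sensor Zbp1 and the transcription factor Irf7 reached 2.39 and 1.98 in treated replicate 4, while the mean differences were 0.78 and 0.61. Of 17 genes tested, 17 had a higher treated mean, against 49.9% of all genes. At an unadjusted p under 0.05, 5 were higher, against 5.15% of all genes. None was called, against 0.209% of all genes.

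Phagocyte and macrophage genes were highest in the same mouse. Of 19 Fc, complement and phagocyte receptor genes, 7 were higher and 0 lower at an unadjusted p under 0.05, and none was called. Over all genes 5.15% were higher and 7.12% lower at that threshold. The scavenger receptor Msr1 differed by 0.76 ± 0.21 and the C-type lectin Clec5a by 0.33 ± 0.08, both without overlap. Of 16 lysosome and macrophage activation genes, 6 were higher and 0 lower at that threshold, against the same shares of all genes, again with none called. Arginase 1 (Arg1) deviated by 2.69 in treated replicate 4 and by 1.05 in replicate 5, but by 0.03, 0.34 and -0.08 in replicates 1 to 3.

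Markers of resident alveolar macrophages went the other way in part. Ear1 stood at 4.66, 4.79, 4.64, 3.07 and 2.86 in treated replicates 1 to 5 against 4.6 to 5.43 in vehicle lungs (difference -1.15 ± 0.35, adjusted p = 0.155), and the lipid carrier Fabp1 at 0.74, 4.20, 4.46, 2.52 and 2.00 against 3.47 to 5.12. Ear1 was lowest in treated replicates 4 and 5, and Fabp1 in replicate 1. The integrin Itgax had a difference of 0.42 ± 0.13. Over the 8 macrophage markers tested, 1 was higher and 2 were lower at an unadjusted p under 0.05, against 5.15% and 7.12% of all genes. None was called, and the median of -0.29 was positive, up to 0.07, in 1 of 6 other background and scaling choices.

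Oxidative stress, metal, clock and steroid lists held no called gene, where 0.209% of all genes were called. At that share a list of this size would mostly hold none. The same holds for the other lists without a called gene. Of 12 Nrf2 targets, haem oxygenase 1 (Hmox1, 0.66 ± 0.16, adjusted p = 0.0825) was the 1 gene higher at an unadjusted p under 0.05, and the list median was 0.08. Of 6 metallothionein and zinc transporter genes, metallothionein 2 (Mt2, 1.04 ± 0.31) and the zinc importer Slc39a14 (0.39 ± 0.14) were higher and Slc39a4 (-0.28 ± 0.12) lower at that threshold. Of 17 clock genes, 3 were higher at that threshold, and Bhlhe40, a repressor within the clock, did not overlap between groups (0.77 ± 0.17, adjusted p = 0.0595). Of 10 glucocorticoid-responsive genes, 1 was higher (Dusp1, 0.83 ± 0.39) and 2 were lower (Pdk4, -0.58 ± 0.25, and Klf15, -0.41 ± 0.18). Over all genes 5.15% were higher and 7.12% lower at that threshold, and the 1 of 12 Nrf2 targets and 1 of 10 glucocorticoid genes that were higher are near those shares.

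**Figure D4:**
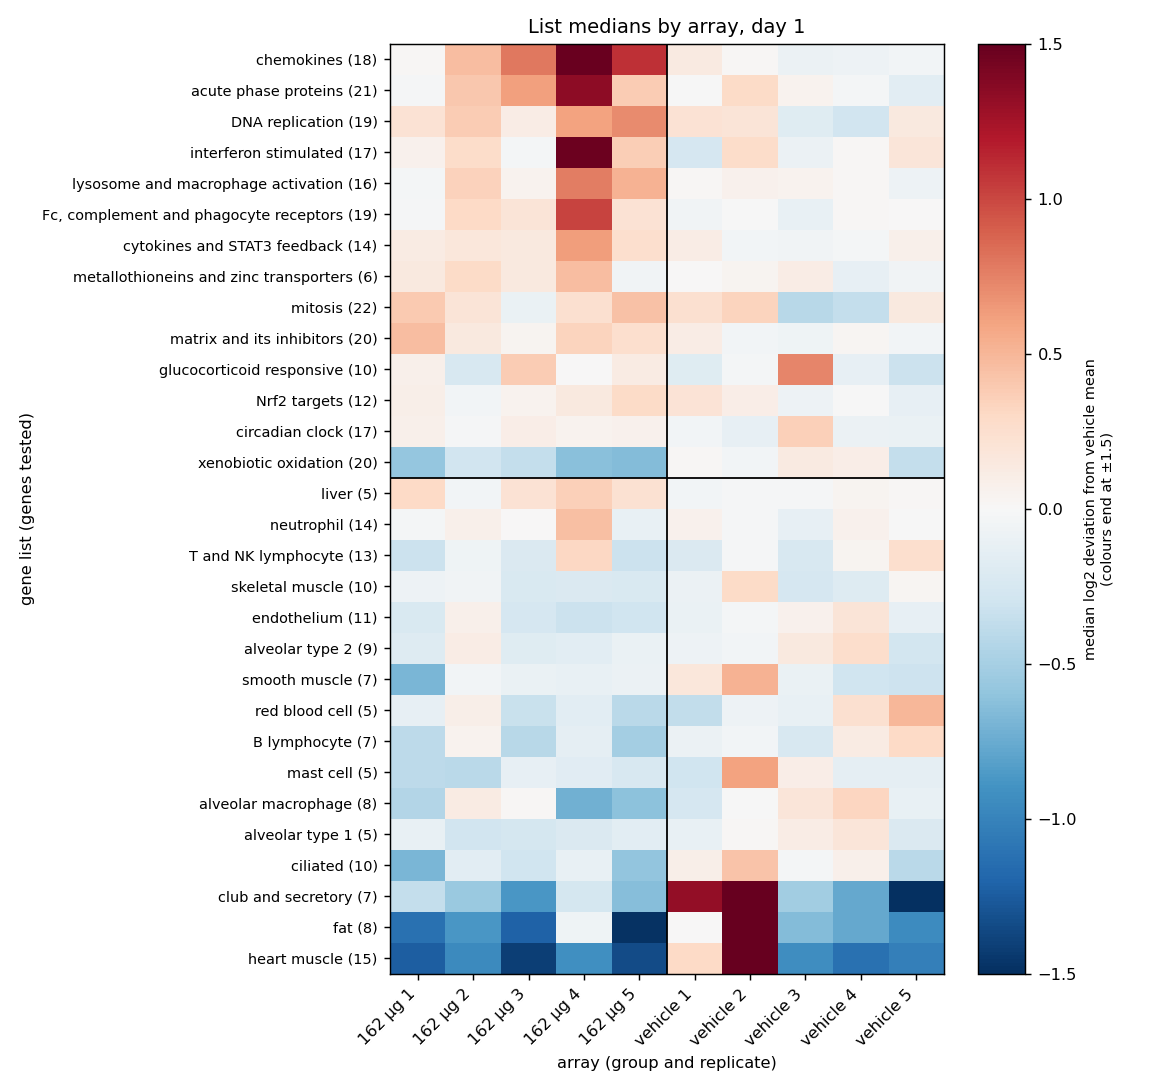
Median log2 deviation from the vehicle mean of each gene list (rows, with the number of genes tested) on each of the 10 arrays (columns), pathway lists above the horizontal line and cell type markers below it. Acute phase, chemokine and interferon lists are deepest in treated replicate 4 and near 0 in replicate 1. Xenobiotic oxidation is negative on each treated array, on vehicle replicate 5 (-0.36) and slightly on vehicle replicate 2 (-0.04). Heart muscle reaches 3.14 on vehicle replicate 2.

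None of the 10 largest mean falls among genes well above background was called, and vehicle replicates 1 and 2 were high in most of them. Clca1, a secreted product of airway goblet cells, stood at 8.26, 9.12, 1.02, -0.04 and 0.52 in vehicle and 0.57, 1.06, 0.14, 2.06 and 0.27 in treated replicates 1 to 5. The cardiac troponin I gene Tnni3 stood at 2.49, 5.24, -0.50, -0.49 and -0.34 in vehicle replicates 1 to 5 against -0.55 to 0.36 in treated lungs. Vehicle replicates 1 and 2 were high in both genes, and the other 3 vehicle lungs lay within or below the treated range.

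The fat gene Cfd, or adipsin, had the largest mean fall, -3.44 ± 1.44, with 6.21, 8.55, 4.47, 4.40 and 3.80 in vehicle and 0.87, 2.29, 1.19, 6.21 and -0.35 in treated replicates 1 to 5. Treated replicate 4 was as high as vehicle replicate 1. Calml3 (-1.66 ± 0.59), an epithelial calmodulin-like protein, was the 1 gene among the 10 largest falls without overlap. The others were Fabp1 (-1.69), Myh6 (-1.67), Car3 (-1.66), Bpifa1 (-1.60), Myl7 (-1.49) and Agr2 (-1.48). With vehicle replicates 1 and 2 left out, a choice made after seeing the data, the differences of Clca1, Bpifa1, Tnni3 and Agr2 became 0.32, 0.18, 0.21 and 0.34.

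The marker lists gave the same picture. The heart muscle list deviated by 0.30 and 3.14 on vehicle replicates 1 and 2 and by -1.41 to -0.92 on treated arrays, with vehicle replicates 3 to 5 at -0.94, -1.12 and -1.03. Of its 15 genes tested, 0 were called and 3 were lower at an unadjusted p under 0.05, against 7.12% of all genes. Its summed level ranged from 4.97 to 6.02 in treated and from 5.99 to 9.12 in vehicle lungs. The fat list was at 2.39 on vehicle replicate 2 and the club and secretory list at 1.32 and 1.86 on vehicle replicates 1 and 2, whereas the leptin gene Lep was at background on all 10 arrays. The fat list had 3 of 8 genes lower at an unadjusted p under 0.05 and the club and secretory list 0 of 7, against the same 7.12% of all genes. The part of these tissues in the falls was not tested.

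Lung epithelial markers were clearly present in both groups. Surfactant protein D (Sftpd) stood at 8.64 to 9.21 in treated and 8.41 to 9.09 in vehicle lungs, far above the reference. The type 2 cell list had a median difference of -0.17 (1 of 9 lower at an unadjusted p under 0.05), and the type 1 list one of -0.36 (3 of 5 lower). Over all genes 7.12% were lower and 5.15% higher at that threshold. The skeletal muscle, smooth muscle, ciliated, endothelial, B lymphocyte, T and NK lymphocyte, mast cell and red blood cell lists had medians from -0.37 (ciliated) to -0.13 (T and NK lymphocyte). None of their genes was called, 0 to 3 in each list were lower at an unadjusted p under 0.05 and 0 were higher, and the endothelial, T and NK lymphocyte and red blood cell medians were positive in 2, 2 and 1 of 6 other background and scaling choices. The type 2 median was positive in 2 of 6 other background and scaling choices and the type 1 median in 1 of them.

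The 5 treated mice did not spread more than the 5 vehicle mice over the genes as a whole. Among the 13734 genes well above background, the median SD was 0.178 in treated and 0.190 in vehicle arrays, and an SD over 1 was found in 48 and 63 genes. The treated SD was more than 2 times the vehicle SD in 1366 genes, and the reverse held in 1705. The 10 genes with the largest excess of treated SD were Saa3, Saa1, Timp1, Saa2, Lcn2, Orm2, Alb, Noxo1, Sct and Ccl7. Saa3 had SDs of 3.00 and 0.48. Noxo1, an organiser subunit of an NADPH oxidase, stood at -0.45, 1.1, 2.24, 2.72 and 1.96 in treated replicates 1 to 5, again with replicate 1 below every vehicle array. The hormone gene Sct reached 2.58 in treated replicate 3 and did not exceed 0.87 elsewhere in the group.

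The number of genes that left the vehicle mean by more than 1 log2 unit also differed between treated mice. Treated replicate 4 had 204 genes above and 113 below, and replicate 5 had 77 above and 150 below. Replicate 1 had 34 above but 153 below, replicate 2 had 32 and 46, and replicate 3 had 40 and 33. Vehicle replicate 2 by itself had 159 genes that far above the mean of the other 4 vehicle arrays and 6 that far below. Vehicle replicate 1, which shared a slide with treated replicate 1, had 51 above and 94 below by the same measure.

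**Figure D5:**
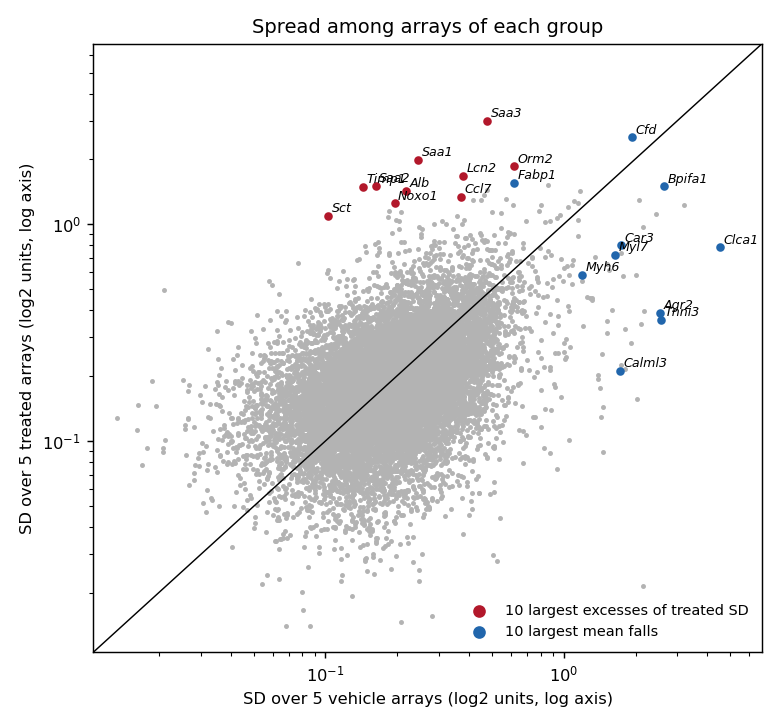
SD over the 5 treated arrays (y axis) against SD over the 5 vehicle arrays (x axis) of each gene well above background, in log2 units on log axes, with the line of equal SD. The 10 genes with the largest excess of treated SD (red) lie above the line, Saa3 highest at 3.00 against 0.48, and the 10 largest mean falls (blue) lie mostly below it.

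The lower doses are given for the genes that led each direction. At 18 µg and 54 µg, with 5 arrays each, Saa3 averaged -2.87 ± 0.73 and -0.14 ± 2.28 (mean ± SD), against -2.62 ± 0.48 in vehicle and 2.54 ± 3.00 at 162 µg. Slc13a4 averaged 2.48 ± 0.12 and 2.36 ± 0.12, against 2.78 ± 0.17 and 1.65 ± 0.48. Aox1 averaged 1.29 ± 0.19 and 1.44 ± 0.10, against 1.65 ± 0.06 and 1.06 ± 0.09, so its mean at 18 µg was lower than at 54 µg. The doses share their vehicle arrays, and no test of a dose order was made.

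No gene differed between NRCWE-030 and NRCWE-025 at the same dose and day by limma at an adjusted p under 0.05 (0 of 18664, or 0%), and 1146 did at an unadjusted p under 0.05. Saa3 averaged 4.70 ± 0.69 after NRCWE-030 and 2.54 ± 3.00 after NRCWE-025 (difference 2.15 ± 0.94, 95% interval 0.27 to 4.03 before any adjustment for the number of genes, adjusted p = 0.778). Orm2 averaged 4.08 ± 0.53 and 2.54 ± 1.85 (difference 1.54 ± 0.48, 95% interval 0.58 to 2.50, adjusted p = 0.565), and Lcn2 4.84 ± 0.41 and 3.59 ± 1.67. The SEs and intervals take 1 variance per gene from all 69 arrays, although the SDs of the 2 groups were far apart. Intervals from the spread of the 2 groups alone were not computed, so those that exclude 0 are not firm. The SDs after NRCWE-030 were smaller in these 3 genes. All 3 were among the genes with the largest excess of treated over vehicle SD on these same NRCWE-025 arrays. That choice favours a smaller SD in any other group, so these SDs cannot show that the materials differ in spread. A missed threshold does not show that the materials act alike, and across other settings the count of called genes ranged from 0 to 12, the highest with slide as a fixed term and, in a separate fit, without treated replicate 4.

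The effect of 162 µg NRCWE-025 differed between day 1 and day 28 in 11 of 18664 genes (0.0589%), 4 with a more positive (0.0214%) and 7 with a more negative effect on day 1 (0.0375%). Adamts9 had effects of 0.52 on day 1 and -0.68 on day 28 (difference of the effects 1.20 ± 0.15). Its vehicle mean was 0.40 ± 0.20 on day 1 and 1.14 ± 0.18 on day 28, a gap larger than either SD. Slc13a4 (-1.5 ± 0.24) had effects of -1.13 and 0.37, with vehicle means of 2.78 ± 0.17 on day 1 and 2.06 ± 0.19 on day 28. Myom3 (-1.17 ± 0.20) had effects of -0.76 and 0.41, with vehicle means of 2.25 ± 0.28 and 1.60 ± 0.18. The vehicle mean of Grb7 was 2.53 ± 0.13 on day 1 and 2.13 ± 0.13 on day 28. Grb7 (-0.78 ± 0.15) and the phosphatase gene Dusp16 (0.65 ± 0.12) were the other genes of smallest p. The day 28 treated group had 4 arrays and its vehicle group 5.

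The number of calls moved with single arrays and with batch terms. The 39 calls fell to 2 without treated replicate 4, to 3 without vehicle replicate 4, to 4 without vehicle replicate 5, to 6 without vehicle replicate 2 or treated replicate 5, and to 23 without vehicle replicate 1. They rose to 75 without treated replicate 3 and to 117 without treated replicate 2. Without treated replicate 1 there were 38 calls, but 26 were higher and 12 lower, and 20 of the 39 genes were among them. When the slide entered the limma fit as a fixed term no gene was called (1840 at an unadjusted p under 0.05), and the same held for the day of scanning (2279). As random terms, slide gave 170 calls and scan day 288, with the 39 genes among them in each case. Scaling between arrays moved the split of 14 higher and 25 lower to 6 and 7, and quantile normalization moved it to 30 and 18.

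A few arrays of both groups shared a slide or a scan day. Treated replicate 1 and vehicle replicate 1 lay on 1 slide, treated replicate 2 and vehicle replicate 3 on another, and treated replicate 4 and vehicle replicate 5 were scanned on the same day. Within these pairs the median difference of the genes called higher was 0.51, 0.52 and 0.81 and that of the genes called lower -0.66, -0.62 and -0.65. For genes whose groups do not overlap, the choice of the genes fixes the sign in a pair. Fam222a and Grb7, whose groups overlap, stood at 0.03 and 0.01 in the second pair. Within these pairs the acute phase median was -0.08, 0.51 and 2.00, and the xenobiotic oxidation median -0.48, -0.38 and -0.35. In the lung channel, 55.4 ± 3.7% of spots (SD, n = 5) were well above background on treated and 61.5 ± 4.2% on vehicle arrays (two-sided exact permutation p = 0.0556).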

How the data were processed

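Lung RNA of 1 mouse (Cy5) and a common mouse reference RNA (Cy3) were hybridised to each 2-colour Agilent array, with no dye swap. Spot and local background intensities were deposited as Agilent Feature Extraction 11.0.1.1 gave them, per the file headers. The log10 ratios deposited beside them had been background-subtracted and dye-normalized by that software. The authors also deposited log2 ratios, LOWESS-normalized by their methods, which were used here as an alternative.

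Median intensities were background-corrected by normexp (offset 50), after local backgrounds that the scanner software marked as outliers were replaced by the median of the others on the array, and log2 ratios were normalized by loess within arrays (limma 3.58.1, R 4.3.3). Control spots were left out, as were spots that the scanner software marked as uneven or as outliers among their replicates. Spots were summarised by probe and probes by gene symbol, by the median. Of 41174 probes, 27501 (66.8%) were named through RefSeq, giving 18757 symbols, of which 93 with missing values were not tested. A gene was well above background on an array where the scanner software marked a probe of it so in Cy5.

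The test against vehicle was limma's moderated test on 20 arrays (vehicle, 18, 54 and 162 µg of NRCWE-025, day 1), two-sided, with Benjamini-Hochberg adjustment over 18664 genes and calls at an adjusted p under 0.05. The comparisons with NRCWE-030 and with day 28 were fitted on 69 arrays. Named are the called genes without overlap between groups (up to 15 in each direction), the 10 largest mean rises and falls and the 10 largest excesses of treated SD among genes well above background, examples from 30 gene lists (otherwise given by counts and medians), and up to 5 genes called in each other comparison. Genes named beyond that rule were picked after their values were seen, and some genes are not reported here. The gene lists and the comparisons were chosen with earlier results of these data known. The scripts were tested on simulated data, and figures were drawn with matplotlib 3.10.9. The number of arrays limits the precision.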

Additional observations from a re-analysis of the deposited data

Results flagged for a closer look

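Within groups of 5 arrays, 15 of 160 sets of values checked (named genes and list medians) held an array whose gap to its nearest neighbour, divided by the range of the group, exceeded Dixon's critical value of 0.71, and chance gives about 1 in 20. Many of these genes were chosen for their mean change or spread on these same arrays, so that count cannot be read against that rate. Treated replicate 4 was such an array for Hnrnpdl (high, 0.727), Cped1 (low, 0.723), the cytokine list (high, 0.754) and the interferon list (high, 0.739). Treated replicate 1 was one for Lcn2 (low, 0.78) and for the smooth muscle list (low, 0.902), and treated replicate 2 for the endothelium list (high, 0.775).

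Among vehicle arrays, replicate 2 stood apart for Orm2 (high, 0.802), Myh6 (high, 0.761), Car3 (high, 0.722), the fat list (high, 0.714) and Lcp2 (low, 0.751). Vehicle replicate 3 stood apart for the circadian clock list (high, 0.83) and the glucocorticoid list (high, 0.727), and vehicle replicate 1 for Hnrnpdl (low, 0.712).

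The effect of 162 µg NRCWE-025 differed between day 1 and day 28 by limma's interaction test for Adamts9 (1.2 on the log2 scale), Slc13a4 (-1.5), Myom3 (-1.17), Dusp16 (0.649) and Grb7 (-0.777).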

How the results depend on the processing

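The count of 39 called genes moved widely with the processing. It became 41 with every local background as scanned (4 higher, 37 lower), 15 with no background correction, 15 with the deposited log2 ratios, 2 with the scanner log ratio, 13 after scale and 48 after quantile normalization, 39 with marked spots kept, 68 with the brightest probe per gene and 51 without dim probes. It was 67 with all 14 groups in the fit, 1 with the 10 arrays alone, 91 with array weights and 13 with a trend and robust prior. Slide as a fixed block gave 0 and as a random block 170, scan day 0 and 288. Leaving out 1 array gave 2 to 117, and leaving out vehicle replicates 1 and 2 together, chosen after seeing the data, gave 4 and turned the differences of Clca1 (0.32), Bpifa1 (0.18), Tnni3 (0.21) and Agr2 (0.34). No called gene changed sign in any of these settings, and 18 of the 39 were called in 50% or more of the 18 settings. Called genes whose groups do not overlap cannot change sign when arrays are left out, so those fits do not test their sign. Over the 18 settings Epb41l4b ranged from -1.17 to -0.02 (limma's adjusted p up to 0.991), Tspan2 from -1.30 to -0.21 and Tmem140 from -0.80 to -0.28, each nearest 0 after scale normalization. The causes were not tested.

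The count for NRCWE-030 against NRCWE-025, 0 as reported, was 1 with backgrounds as scanned, 12 with slide as a fixed block and 0 to 12 with 1 array left out. The count for day 1 against day 28, 11 as reported, was 2 with backgrounds as scanned, 2 after scale normalization, 31 with the deposited log2 ratios, 40 with the scanner log ratio, 26 with the brightest probe, 17 without dim probes, 7 with only the groups compared, 197 and 129 with slide as a fixed and a random block, 205 and 162 with scan day, and 155 with array weights. Leaving out 1 array gave 5 to 43, with 43 without treated replicate 2 and 34 without day 28 treated replicate 1. No paired analysis was possible because the replicate numbers follow accession order and pair no mice, and slide and scan day were the blocks fitted.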
